A study of Mus musculus with 4 samples.

Results

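The genes described here are protein-coding neighbours of the class I genes, in and around the major histocompatibility complex of the mouse, 85 of 22084 genes in the files. The span was set by position and was not trimmed to the borders of the complex. They were taken by place and count, from a span of 3 Mb on chromosome 17 and with at least 40 raw counts summed over all 4 libraries. The first is Adamts10, which starts at 33524204 on GRCm38, and the last is Trim39, which ends at 36272247. Genes whose names begin with H2- were left out, as were Rps18, Rps28, Rps10, Tap1, Tap2, Tapbp, Tubb5, Ehmt2 and Notch4. By place, type and name alone 102 genes were eligible, so 17 were dropped by the count. The rule used only the summed counts, and it used no comparison between groups.

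The series measured RNA in 4 libraries of mouse embryonic telencephalon (E13.5), to ask how loss of Tcf20, a nuclear protein, affects the formation of neurons. KO26F and KO23M have the genotype TCF20-/- and WT25F has TCF20+/+. WT22M is titled wild type, but its genotype field reads TCF20+/-. Under either label it keeps an intact allele, so WT25F and WT22M are called carriers below. All 4 libraries share the strain B6D2F2, the intercross offspring of inbred B6 and D2 parents, so embryos can differ in which parental copy of a locus they carry. Which copy of the region each library carries was not analysed here. The labels do not give the kind of Tcf20 mutation, and nothing in them says whether the embryos came from separate litters, so a p-value here reflects the spread among these samples only. Most labels name telencephalic tissue, whereas the extraction text names cerebral cortex.

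The region is best known for the class I and class II genes, whose proteins show peptides to T cells. Between these lie many genes with no part in antigen display, which serve splicing, chromatin, protein folding, trafficking and the cytoskeleton in nearly every cell. A stretch known as class III holds complement genes, the tumour necrosis factor cluster and a heat shock protein cluster. Inbred strains differ widely in the sequence of the class I and class II genes.

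Depth was even, from 17791641 to 18509743 counts per library, so that 3 counts, the limit set by a count of 0, correspond to between 0.162 and 0.169 CPM. CPM are counts scaled to the total of the library. Tcf20 itself, on chromosome 15, stood at 98.6 and 104 CPM in KO26F and KO23M, against 118.5 in WT25F and 111 in WT22M. Its log2 fold change was -0.18 (SE 0.10, edgeR adjusted p = 0.9997), so Tcf20 did not pass the test, although both knockouts lay below both carriers. All 9 telencephalon markers were present, with summed levels of 1633 to 1934 CPM. Markers of 3 other tissues or cell types differed between the libraries. Choroid plexus markers summed to 202 CPM in WT22M against 784 to 1005 in the other libraries, and diencephalon markers to 99.7 CPM in WT25F against 39.0 to 43.4. Erythroid markers summed to 1216 CPM in WT25F against 715 to 915 in the other libraries, and the part of these lists in the results below was not tested.

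The 85 genes passed the filter on low counts and appear in all 3 deposited tables. Per length of exon they spanned a wide range, from 0.0839 RPKM (CPM divided by the exon length in kilobases) for the matrix gene Tnxb to 273 RPKM for Ddah2, with a median of 17.1. There were 48 genes at 10 RPKM or more and 8 under 1 RPKM. Ddah2, named for a family of enzymes that break down methylated arginine, led in mean RPKM. Next came Ddx39b, an RNA helicase of splicing and mRNA export, at 178 RPKM, and the RNA-binding protein gene Prrc2a at 169 RPKM. Bag6, a chaperone for membrane proteins that miss their target, stood at 122 RPKM. Atat1, which acetylates alpha-tubulin, stood at 103 RPKM. Csnk2b, the regulatory subunit of casein kinase 2, reached 84.2 RPKM. The collagen receptor kinase Ddr1 reached 80.2, the lipid synthesis gene Agpat1 78.0, the stress sensor Atf6b 75.8 and the bromodomain gene Brd2 67.4 RPKM. Genes of RNA processing had a median of 27.9 RPKM and those of chromatin and transcription 20.7 RPKM. The 8 genes of the tumour necrosis factor cluster and of leukocytes had a median of 1.96 RPKM and none exceeded 4.23.

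Many immune genes of the region lay close to or under the count threshold. Just outside it were G6b with 39 counts in all, Lst1 with 38 and Hspa1a with 33. Just inside were Lta with 41, Hspa1l with 62, and Vwa7 and Ly6g5b with 73 each. The genes left out by the count included Tnf, the tumour necrosis factor itself, with 3 counts over the 4 libraries, and C4b, a complement gene, with 6. They also included Ltb with 16 counts and the immunoproteasome subunits Psmb8 and Psmb9 with 21 and 30. Slc39a7 had 20 counts, and 80.7% of its exon length is shared with another annotated gene, Gm20427. Reads in shared exons cannot be assigned by these counts, and 41 of the 85 genes share some exon sequence with another gene.

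No gene of the 85 passed the test between the knockouts and the carriers (edgeR quasi-likelihood test, Benjamini-Hochberg adjusted p under 0.05, lowest adjusted p 0.9997). Of all 16252 genes tested, 0.0615% passed. At an unadjusted p under 0.05 there were 9 of the 85, or 10.6%, beside 2.86% of all genes tested. The median log2 fold change of the 85 was 0.00, equal to that of all genes tested. Most differences were small: 6 of the 85 exceeded 1.5-fold, and the median SE was 0.12 on the log2 scale. Both knockouts stood above both carriers in 15 genes and below both in 9. The same held for 13.6% and 13.4% of all genes tested, so that the 24 genes without overlap compare with 27% in the background. DESeq2 and limma voom also called none of the 85, with 5 and 6 at an unadjusted p under 0.05, beside 1.14% and 2.92% of all genes tested by each tool.

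**Figure D1:**
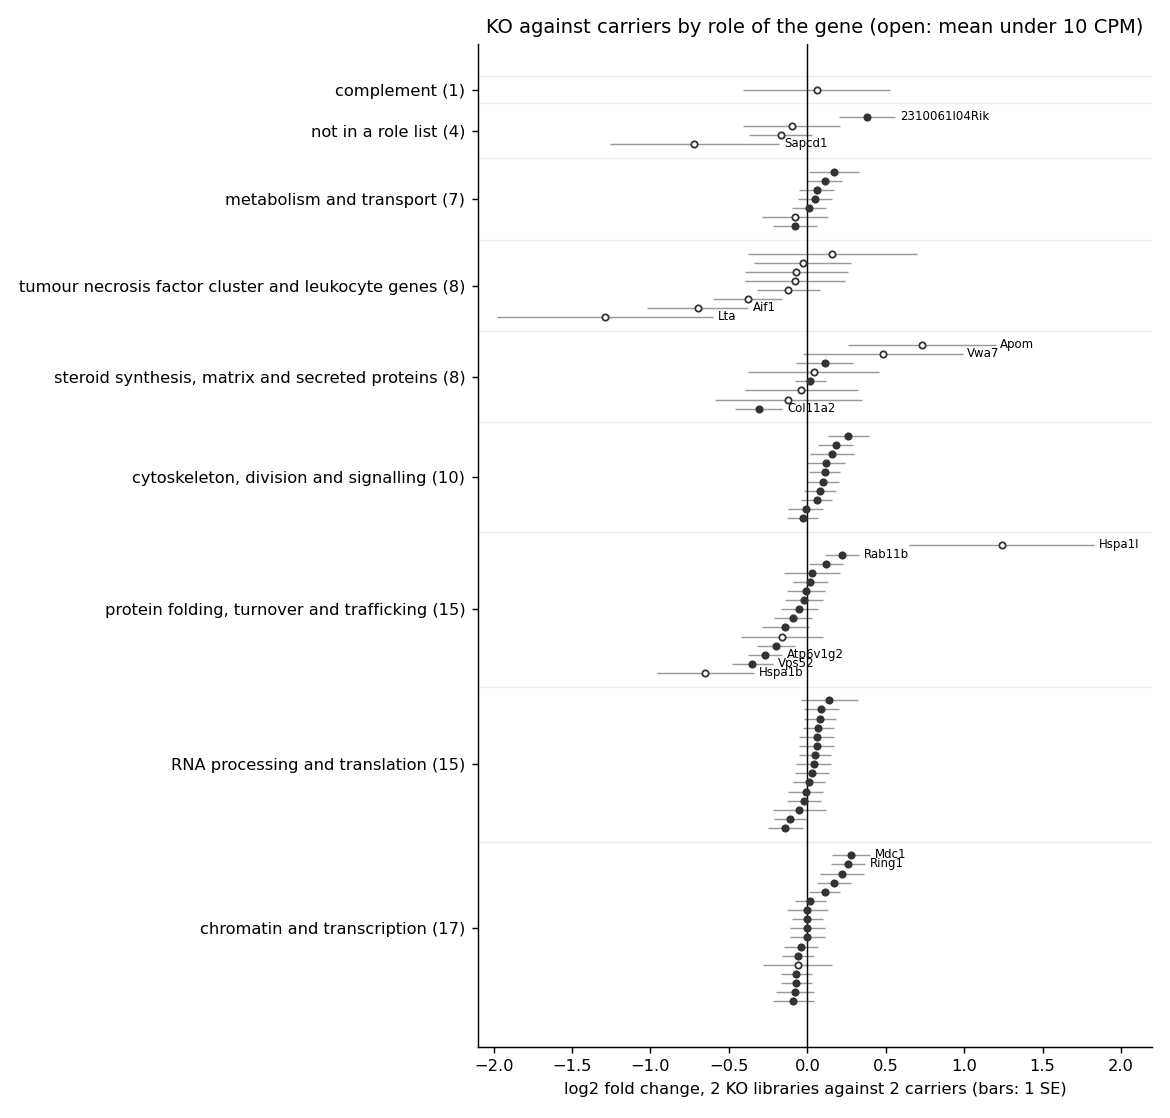
Log2 fold change of the 2 knockouts against the 2 carriers for each of the 85 genes, grouped by role, with bars of 1 SE and open points for genes under 10 CPM. The points of the RNA processing group lie between -0.14 and 0.14, and the widest bars belong to genes under 10 CPM such as Lta and Hspa1l.

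The 15 genes of RNA processing and translation had log2 fold changes between -0.14 and 0.14 for knockouts against carriers, and 0 passed. Ddx39b is an example. Its knockouts measured 635 (KO26F) and 705 CPM (KO23M), and its carriers 626 (WT25F) and 725 CPM (WT22M), so each arm held 1 high and 1 low library. Abcf1, an initiation factor of translation, stood at 187 and 196 CPM in the knockouts and at 176 and 185 in the carriers. Its log2 fold change was 0.08 (SE 0.10). Skiv2l, a helicase that feeds RNA to the exosome, gave -0.11 (SE 0.10), Vars2, the mitochondrial valyl-tRNA synthetase, 0.09 (SE 0.11), and the GTPase gene Gnl1 -0.14 (SE 0.11). Without WT22M Skiv2l gave -0.01 and Gnl1 -0.03, and without WT25F they gave -0.20 and -0.25.

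The 17 genes of chromatin and transcription ranged from -0.09 to 0.28, and 0 passed. Ring1, an E3 ligase of Polycomb repressive complex 1, had 60.2 and 60.9 CPM in the knockouts against 50.5 and 50.6 CPM in the carriers. The 2 libraries of each arm differed by less than 1 CPM and the arms did not overlap. The log2 fold change of Ring1 was 0.26 (SE 0.11, unadjusted p = 0.0273, edgeR adjusted p = 0.9997). Mdc1, which binds phosphorylated histone at DNA breaks, had 77.2, 60.1, 58.7 and 54.2 CPM in KO26F, KO23M, WT25F and WT22M. Only KO26F stood clear of the others, and the log2 fold change of Mdc1 was 0.28 (SE 0.12, edgeR adjusted p = 0.9997). It was 0.11 without KO26F and 0.43 without KO23M. Nelfe, of the complex that pauses RNA polymerase, gave 0.17 (SE 0.11), and Gtf2h4, of the general factor TFIIH, gave 0.22 (SE 0.14), with 0.10 without WT22M and 0.35 without WT25F. Bag6, described above as a chaperone, is placed in this group by the role lists used here. Bag6 and Brd2, the genes of this group with the most counts, gave 0.02 and -0.07.

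The 15 genes of protein folding, turnover and trafficking spread from -0.65 to 1.24, and again 0 passed. Vps52 encodes a tethering subunit for vesicles that return from endosomes to the Golgi. In the knockouts it measured 109 CPM (KO26F, 95% counting interval 104 to 114) and 135 CPM (KO23M, 130 to 141). In the carriers it measured 140 CPM (WT25F, 135 to 146) and 171 CPM (WT22M, 165 to 177). KO26F was lowest and WT22M highest, each apart from the rest, while KO23M and WT25F had overlapping intervals. The log2 fold change of Vps52 was -0.35 (SE 0.13, unadjusted p = 0.0205, edgeR adjusted p = 0.9997). With a lone library left in an arm, it was -0.54 without KO23M and -0.51 without WT25F, whereas it was -0.19 without KO26F and -0.19 without WT22M. Atp6v1g2, a subunit of the vacuolar proton pump, had 47.9 and 45.4 CPM in the knockouts against 54.5 and 57.6 in the carriers, without overlap. Its log2 fold change was -0.27 (SE 0.11, edgeR adjusted p = 0.9997). Rab11b, a GTPase of recycling endosomes, had 325 and 285.8 CPM in KO26F and KO23M, against 286 and 236 CPM in WT25F and WT22M. KO23M and WT25F were again level, between a high KO26F and a low WT22M, and the log2 fold change was 0.22 (SE 0.11, edgeR adjusted p = 0.9997). It was 0.11 without WT22M and 0.35 without WT25F.

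The heat shock cluster of the region had low counts. Hspa1b, an inducible chaperone of the 70-kilodalton family, ran from 2.32 CPM in KO26F (1.67 to 3.13) to 5.68 in WT22M (4.62 to 6.90), with KO23M at 3.46 (2.66 to 4.42) and WT25F at 3.40 (2.60 to 4.37). Knockouts against carriers gave -0.65 (SE 0.31, edgeR adjusted p = 0.9997). The value was -0.22 without WT22M and -0.38 without KO26F, against -0.99 without WT25F and -1.0 without KO23M. Hspa1a, its near-identical copy, had 16, 6, 8 and 3 counts in the same order of libraries, the reverse order of Hspa1b at both ends. Reads that match both copies could be split between them, so both values are uncertain. Hspa1l had 33 counts in KO26F against 11, 11 and 7 in KO23M, WT25F and WT22M, and its difference on the log2 scale was 1.24 (SE 0.59, edgeR adjusted p = 0.9997), or 0.25 without KO26F. Another annotated gene, Gm10501, shares 71.9% of the exon length of Hspa1l. Of 14 heat shock genes elsewhere in the genome, 0 passed with edgeR, DESeq2 or limma voom and 0 had an unadjusted p under 0.05, with a median log2 fold change of -0.02.

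The start of Hspa1b is shown because the gene differed more than 2-fold between libraries and belongs to a textbook heat shock promoter. The window runs from 250 bases before to 50 bases after the RefSeq start site on GRCm38.p6, chr17:34959189-34959488, minus strand. Capitals mark the match to the heat shock element core GAANNTTC.

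Hspa1b: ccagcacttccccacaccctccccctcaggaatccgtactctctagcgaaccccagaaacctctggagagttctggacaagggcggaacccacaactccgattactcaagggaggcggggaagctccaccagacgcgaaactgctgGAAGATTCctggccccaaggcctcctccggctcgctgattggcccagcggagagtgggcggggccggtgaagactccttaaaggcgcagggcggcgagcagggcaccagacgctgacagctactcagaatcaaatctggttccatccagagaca

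The core was found once in that window, together with 3 matches to the GC box GGGCGG. The window of Hspa1l held 0 matches to the core. A match is a string of letters and not a measured binding site. Of the 85 genes, 70 had a RefSeq window, and the core was present in 7.14% of these 70 and in 7.86% of 32851 RefSeq windows of the same length, searched on both strands. The 70 were a single window for each gene, whereas the 32851 can hold several of a gene.

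The 10 genes of the cytoskeleton, cell division and signalling lay between -0.03 and 0.26, with 8 of 10 above 0 and 0 passing. Cchcr1, a coiled-coil protein of the centrosome, had 31.6 and 29.4 CPM in the knockouts against 26.4 and 24.5 in the carriers. Its arms did not overlap and its log2 fold change was 0.26 (SE 0.13, edgeR adjusted p = 0.9997). Kifc1, a kinesin motor of the spindle, stood at 47.0 and 48.7 CPM in the knockouts and 42.9 and 41.4 in the carriers, a log2 fold change of 0.18 (SE 0.11). The Ral exchange factor Rgl2 gave 0.11 (SE 0.10) and Kank3 gave 0.16 (SE 0.14). The 7 genes of metabolism and transport were tighter still, from -0.08 to 0.17. Among them Gpank1 gave 0.17 (SE 0.16), the chloride channel gene Clic1 0.11 (SE 0.11), the complex I subunit Ndufa7 0.06 (SE 0.11) and the vitamin B12 receptor Cd320 -0.08 (SE 0.14).

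The 8 matrix, steroid and secreted protein genes ranged from -0.31 to 0.73. Col11a2, a fibrillar collagen chain, stood at 28.8 and 28.6 CPM in KO23M and WT25F, with KO26F below at 24.5 and WT22M above at 37.55. The knockout arm overlapped the carriers, and the difference between arms was -0.31 (log2, SE 0.15, edgeR adjusted p = 0.9997). It was -0.09 without WT22M, -0.18 without KO26F and -0.52 without WT25F. Markers of meninges and mesenchyme, other collagen-rich tissue, summed to 336, 351, 417 and 423 CPM in KO26F, KO23M, WT25F and WT22M, with 10 of 10 markers found. All 10 had a fitted log2 fold change at or below 0 for knockouts against carriers. Their part in the value of Col11a2 was not tested. Apom, an apolipoprotein, had 1.82, 1.08, 1.06 and 0.675 CPM in the same order, a log2 fold change of 0.73 (SE 0.47), or 0.33 without KO26F and 0.46 without WT22M. Vwa7 gave 0.48 (SE 0.51), with 0.02 without WT22M, 0.15 without KO26F and 1.18 without WT25F, and Angptl4, an inhibitor of lipoprotein lipase, 0.11 (SE 0.18).

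The 8 leukocyte and tumour necrosis factor cluster genes had a fitted change below 0 in 7 of 8, and 0 passed. Aif1, known as the microglial protein IBA1, likewise had its lowest value in KO26F, at 1.93 CPM (1.35 to 2.69), and its highest in WT22M, at 4.89 (3.92 to 6.03). KO23M at 2.92 (2.19 to 3.81) and WT25F at 3.01 (2.26 to 3.93) lay between them with overlapping intervals, and knockouts against carriers gave -0.70 (SE 0.32, edgeR adjusted p = 0.9997). That value was -0.29 without WT22M, -0.42 without KO26F and -1.06 without KO23M. The 16 microglia and macrophage markers, Aif1 included, summed to 149, 156, 164 and 192 CPM in the same order. Of these 16, 2 were fitted above 0 for knockouts against carriers, P2ry12 and Cx3cr1, and the rest below 0. P2ry12 had 5.41 and 4.75 CPM in KO26F and KO23M, against 2.675 and 2.75 in WT25F and WT22M. Its log2 fold change was 0.90 (edgeR adjusted p = 0.9279), with the smallest unadjusted p of the 16, and Cx3cr1 gave 0.06. None of the 16 was at 0 counts in all libraries. In bulk tissue fewer cells of a type and less RNA per cell cannot be told apart, and the part of this marker list in the value of Aif1 was not tested. Lta, the lymphotoxin alpha gene, had 2, 10, 18 and 11 counts in KO26F, KO23M, WT25F and WT22M. The difference of -1.29 on the log2 scale (SE 0.69, edgeR adjusted p = 0.9997) was -0.56 without KO26F and -2.82 without KO23M. Lymphoid and other blood cell markers summed to 2.22 to 3.14 CPM, with 5 of 8 found. The inhibitor-of-NF-kappa-B-like gene Nfkbil1 gave -0.38 (SE 0.22), or -0.21 without KO26F and -0.59 without KO23M, and Ager, the receptor for glycated proteins, -0.12 (SE 0.20). C2, the complement gene of the region that passed the count, had 19, 23, 14 and 25 counts and a log2 fold change of 0.06 (SE 0.47). Another gene or genes share 46.9% of its exon length.

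A recurring order stood out among these values: KO26F and WT22M at opposite ends, with KO23M and WT25F between them. This order was picked after the values were seen, so its counts are a description with no test. It held for 29 of the 85 genes (34.1%), beside 22.1% of all genes tested and 16 of 46 flanking genes (34.8%). In 24 of the 85 the counting intervals of KO26F and WT22M were also apart, beside 12.3% of all genes tested. The 85 have a median level of 51.3 CPM against 20.5 for all genes tested, and intervals are narrower at higher counts. In 13 of them KO26F was the highest library, and in 16 the lowest. The order held for 10 of the 21 genes in the last megabase of the region, 14 of the 41 in the middle one and 5 of the 23 in the first. Among the 25% of tested genes with the highest GC content, 22% had this order.

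The clearest case beside Vps52 was 2310061I04Rik. KO26F had 47.3 CPM (44.2 to 50.6) and WT22M had 26.1 (23.8 to 28.6), while KO23M had 34.85 (32.2 to 37.6) and WT25F 36.8 (34.1 to 39.75). KO26F and WT22M were each apart from the other 3 libraries, and KO23M and WT25F overlapped. The knockouts against carriers gave 0.38 (SE 0.18, edgeR adjusted p = 0.9997). With a lone library left in an arm, this value was 0.56 without KO23M and 0.63 without WT25F. It was 0.17 without KO26F and 0.17 without WT22M.

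**Figure D2:**
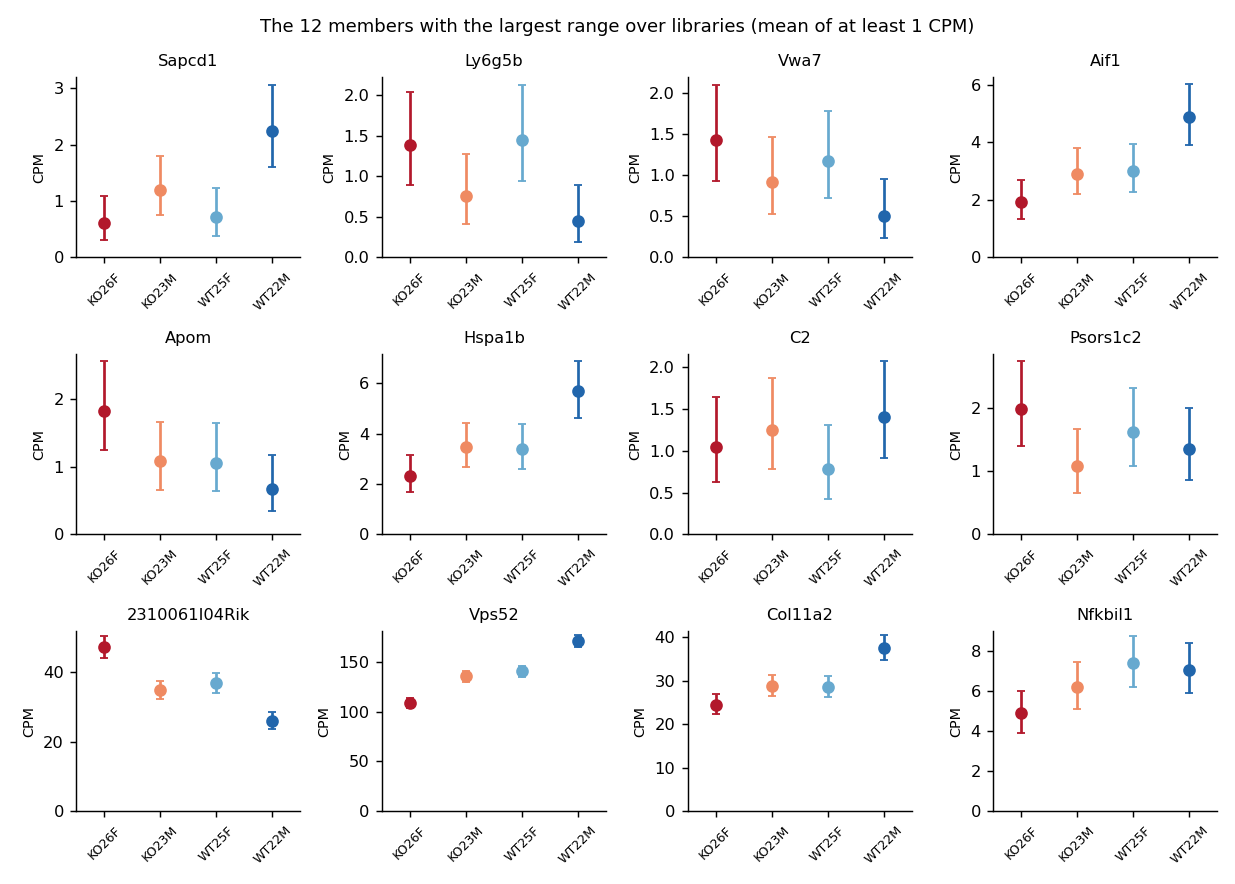
CPM in each library, with 95% counting intervals, for the 12 genes with the largest range among those of at least 1 CPM; each panel has its own axis from 0. In Vps52, Col11a2, Aif1 and Hspa1b KO26F is lowest and WT22M highest, and in 2310061I04Rik and Apom the order is reversed.

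Vps52 lies head to head with Rps18, a ribosomal protein gene that the rule left out, and the 2 genes went opposite ways across the libraries. Rps18 had 359.5 and 240 CPM in KO26F and KO23M, and 207 and 37.5 CPM in WT25F and WT22M, the reverse of the order of Vps52. Between WT22M and WT25F, 2 single libraries without replicates, the log2 fold change was -2.43 for Rps18 and 0.32 for Vps52. Ribosomal protein genes have many near-identical copies in the genome, so the count of Rps18 is uncertain. Rps18 shares 3.93% of the exon length of Vps52. Whether reads moved between the 2 genes was not tested. For Vps52 the RefSeq start site nearest to the deposited start was used, and for Rps18 the first one listed. These sites are 135 bases apart and point away from each other, and 234 bases are shared by the 2 promoter windows. By the deposited edges, 33955812 for Vps52 and 33956001 for Rps18, the 2 genes overlap at their starts. The window of Vps52 is shown because both of these RefSeq sites lie in it. It covers chr17:33955550-33955849 of GRCm38.p6, plus strand, and capitals mark the ETS core CCGGAAG in either orientation.

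Vps52: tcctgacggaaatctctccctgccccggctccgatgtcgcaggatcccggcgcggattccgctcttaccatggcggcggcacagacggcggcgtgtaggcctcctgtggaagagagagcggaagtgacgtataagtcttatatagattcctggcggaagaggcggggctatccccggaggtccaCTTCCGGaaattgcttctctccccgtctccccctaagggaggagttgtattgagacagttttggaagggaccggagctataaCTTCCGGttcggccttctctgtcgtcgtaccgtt

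This window held 2 matches to the ETS core. Both lie in the stretch shared with the window of Rps18, so the 2 matches in that window are the same sites. The core was present in 17 of the 70 windows of the region genes (24.3%), beside 8.86% of all RefSeq windows. The GC box was present in 55.7% of the 70 against 35.7% of all, and the TATA box TATAAA in 11.4% against 13.6%. The windows of the region genes had a median GC content of 58.5%, against 52.7% over all windows, and these shares were not corrected for it. The 70 windows were a single one for each gene, all with at least 40 counts. The 32851 RefSeq windows can hold several of a gene and were not filtered by count, which was not corrected for either. RefSeq lists 3 windows for Vps52, of which the nearest to the deposited start was used.

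Head-to-head neighbours within the 85 allow a similar look, here by the deposited gene edges and not by RefSeq starts. There were 8 such pairs with edges at most 1000 bases apart. By these edges Gnl1 and Prr3 overlap at their starts. Their nearest RefSeq starts, 35979955 for Gnl1 and 35979295 for Prr3, point away from each other without overlap. Gnl1 had 111, 123.5, 121 and 137 CPM in KO26F, KO23M, WT25F and WT22M, and Prr3 had 82.5, 81.3, 86.5 and 70.4. WT22M was highest for Gnl1 and lowest for Prr3, with log2 fold changes against WT25F of 0.22 (SE 0.17) and -0.27 (SE 0.18) that did not pass. Ppp1r10, a phosphatase regulator, and Mrps18b, a mitochondrial ribosomal protein, start 45 bases apart by the deposited edges. Their nearest RefSeq starts are 35917196 and 35916440. For knockouts against carriers Ppp1r10 and Mrps18b gave 0.11 (SE 0.10) and 0.14 (SE 0.18). Wdr46 and the prefoldin subunit Pfdn6 gave 0.03 and -0.02, and Cchcr1 and Tcf19 0.26 and 0.00.

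Spread over all 4 libraries was close to that of other genes. The median ratio of the highest to the lowest library was 1.21-fold for the 85, 1.24-fold for all genes tested and 1.23-fold for the 46 flanking genes within 3 Mb on either side. The 8 H2 genes of the region had a median of 2.08-fold. A range of at least 2-fold was seen in 8 of the 85 (9.41%), in 10.7% of all genes tested and in 4 of the 8 H2 genes. All 8 of the former were under 10 CPM: Lta with 7.52-fold, Hspa1l with 4.26, Sapcd1 with 3.69, Ly6g5b with 3.02, Vwa7 with 2.66, Aif1 with 2.58, Apom with 2.56 and Hspa1b with 2.50. At 10 CPM or more there were 63 genes, of which 0 reached 2-fold and 3 exceeded 1.5-fold, namely 2310061I04Rik (1.76), Vps52 (1.62) and Col11a2 (1.58). The smallest ranges were those of Prrt1 (1.05-fold), Wdr46 (1.06) and Adamts10 (1.07). In 31 genes the counting intervals of the highest and the lowest library overlapped, and in 54 they did not. The H2 genes H2-T22 and H2-T23 lie near Gnl1 at the far end. Between WT22M and WT25F, 2 single libraries without replicates, their log2 fold changes were -1.86 and -4.00. Reads of class I genes that match several copies make these values uncertain.

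**Figure D3:**
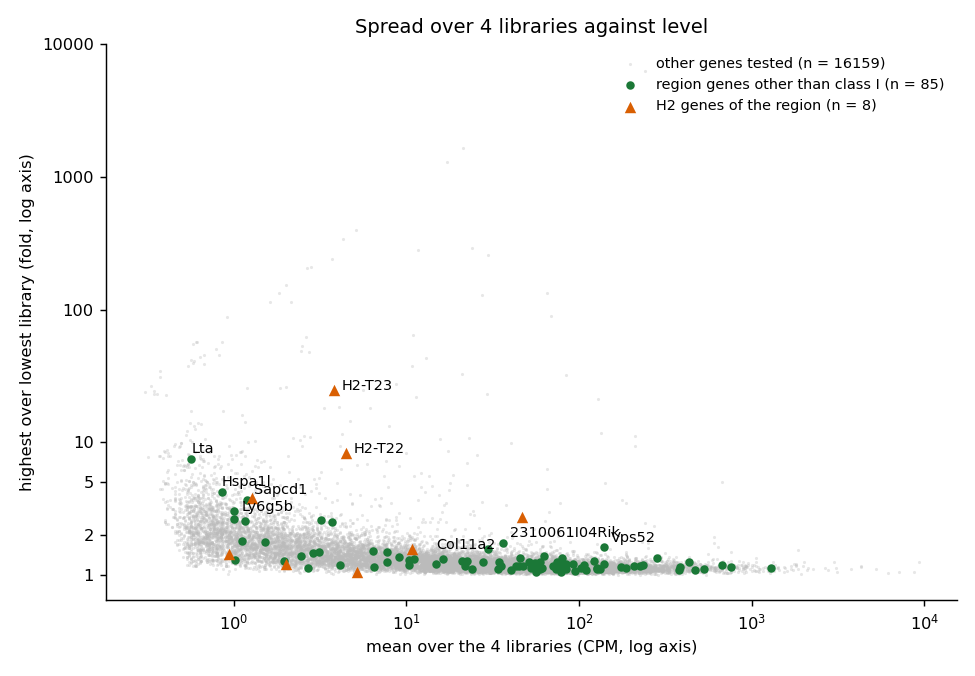
Ratio of the highest to the lowest library against mean CPM, both on log axes, for every gene tested (grey), the 85 region genes (green) and the 8 H2 genes (orange triangles). The green points follow the grey band, with 8 at 2-fold or more, all under 10 CPM, while 4 of the 8 triangles lie at 2-fold or above.

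WT22M against WT25F compares 2 single libraries, whose spread was taken from the 2 knockouts. None of the 85 passed (edgeR, lowest adjusted p 0.6404), beside 0.714% of all genes tested. At an unadjusted p under 0.05 there were 6 of the 85, or 7.06%, against 4.88% of all genes. These were Sapcd1 at 1.66 (SE 0.67), Hspa1b at 0.77 (SE 0.39), Zfp414, a zinc finger gene, at 0.42 (SE 0.18), Col11a2 at 0.42 (SE 0.20), 2310061I04Rik at -0.46 (SE 0.19) and Ly6g5b at -1.64 (SE 0.79), all on the log2 scale. Sapcd1 had 11, 22, 13 and 40 counts in KO26F, KO23M, WT25F and WT22M, and 53.2% of its exon length is shared with Vwa7. Ly6g5b had 25, 14, 26 and 8 counts, high in KO26F and WT25F and low in KO23M and WT22M. For the knockouts against WT25F alone 0 of the 85 passed and 0 had an unadjusted p under 0.05, beside 0.345% and 3.43% of all genes (edgeR, lowest adjusted p 0.9999). DESeq2 and limma voom gave 0 and 1 of the 85 at that unadjusted level for WT22M against WT25F, beside 1.06% and 2.57% of all genes tested. They gave 0 and 1 for the knockouts against WT25F, beside 0.689% and 2.11%.

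The titles end in F or M, and the medians over all 85 genes were higher in the libraries with M. Against WT25F the median log2 difference of the 85 was 0.01 in KO26F, 0.09 in KO23M and 0.12 in WT22M. These genes were higher than in WT25F in 44, 64 and 62 of 85 cases, while the medians of all genes tested were 0 in each library. The split did not hold along the whole region: over the 21 genes of the last megabase the medians were 0.10 in KO26F, 0.10 in KO23M and 0.01 in WT22M. Both M libraries stood above both F libraries in 34 of the 85 (40%), beside 18.6% of all genes tested. This count was also chosen after the values were seen. GC content moved with the same split. The longest transcripts of the 85 have a median GC content of 56.3%, against 49.8% for all genes tested. Of the 85, 59 fall among the 25% of tested genes with the highest GC content. All tested genes of that GC-rich set had medians of -0.02, 0.09 and 0.11 in KO26F, KO23M and WT22M, close to those of the region genes. Both M libraries stood above both F libraries in 37.9% of the GC-rich set. The 25% of tested genes with the lowest GC content had medians of 0.01, -0.06 and -0.11. The 26 region genes outside the GC-rich set had 0.01, 0.06 and 0.09. The part of GC content in the region's values was not tested further.

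**Figure D4:**
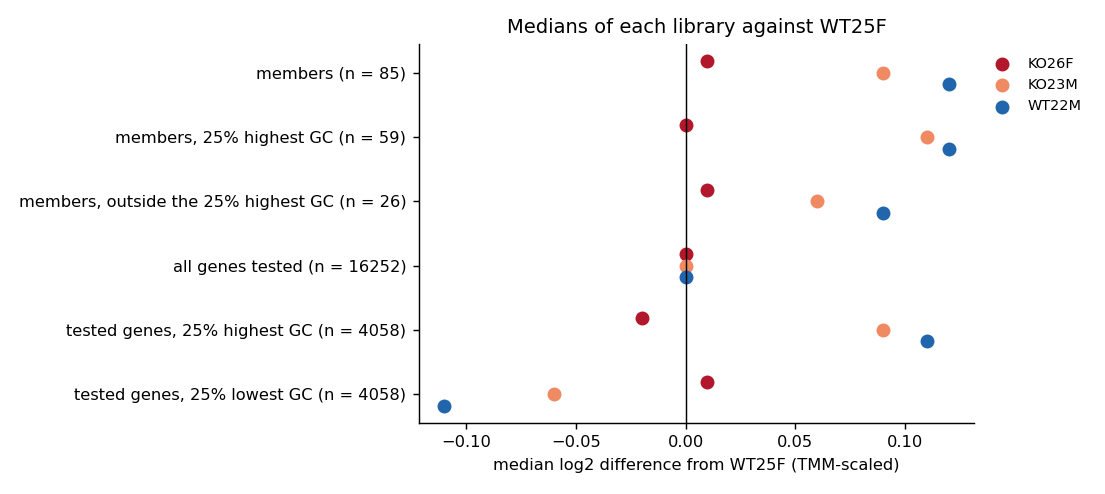
Median log2 difference of KO26F, KO23M and WT22M from WT25F, for the 85 region genes, the same split by GC content of the longest transcript, and all genes tested with the 25% highest and 25% lowest in GC. The region genes and the GC-rich genes show KO23M and WT22M to the right of KO26F, at 0.09 to 0.12, and the GC-poor genes show the reverse.

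Within a letter, the knockout and its carrier share their place in this split. KO26F was compared with WT25F and KO23M with WT22M by counting intervals, with 1 library on each side and no test. Both intervals excluded 0 with the same sign in 15 of the 85 genes, beside 5.08% of all genes tested, and with opposite signs in 4, beside 4.16%. Such intervals are narrower at higher counts, and the 85 have a median level of 51.3 CPM against 20.5 for all genes tested. The 15 included Vps52 (-0.38 and -0.34), 2310061I04Rik (0.35 and 0.42), Ring1 (0.24 and 0.27), Cchcr1 (0.25 and 0.27) and Rab11b (0.17 and 0.28), as log2 ratios for F and M. Atp6v1g2 had -0.19 and -0.34, Flot1, a lipid raft protein, -0.13 and -0.26, and Aif1 -0.65 and -0.74. These intervals cover counting error only. The 4 with opposite signs were March2 (0.18 and -0.21), Pfdn6 (-0.18 and 0.13), Agpat1 (-0.10 and 0.11) and Ddah2 (-0.07 and 0.16).

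**Figure D5:**
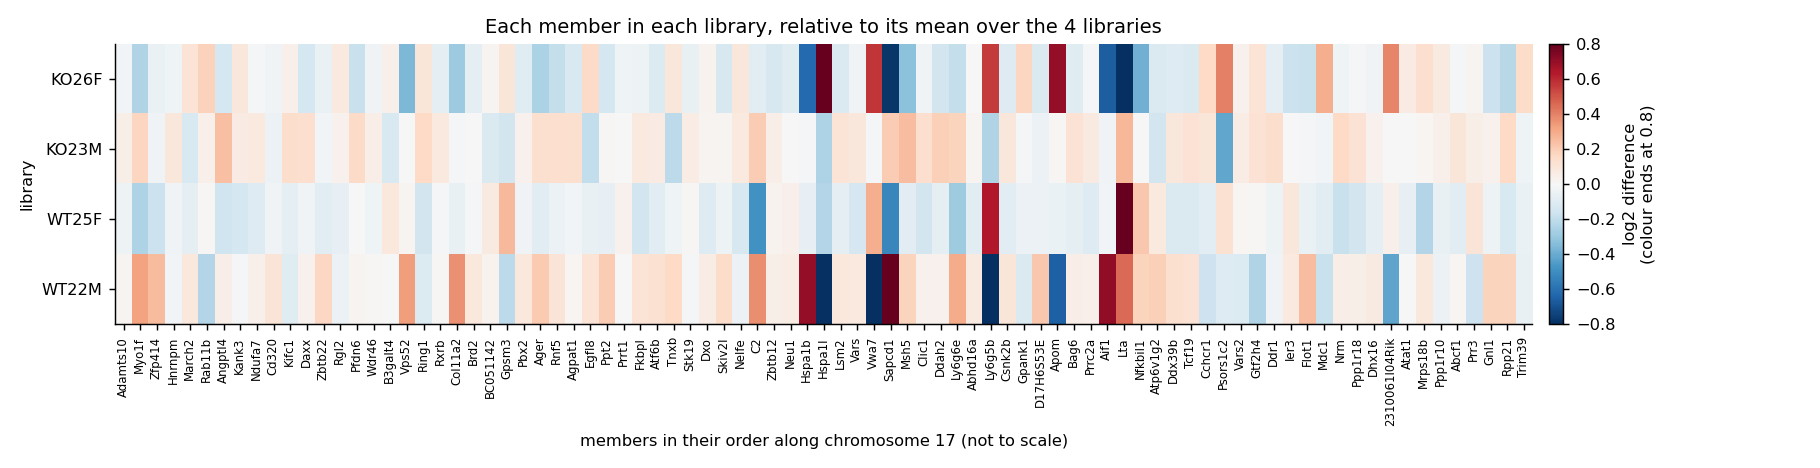
Log2 difference of each of the 85 genes from its own mean over the 4 libraries, in chromosome order, with red above and blue below the mean and the colour scale ending at 0.8. Strong colours stand at single genes such as Hspa1l, Sapcd1, Ly6g5b and Lta, all under 10 CPM, while most columns are pale.

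The medians differed between stretches of the chromosome, with no test. Summed over the 85 genes, the knockouts had 9208 (KO26F) and 9689 CPM (KO23M) and the carriers 9027 (WT25F) and 9512 CPM (WT22M). By megabase from the first, the median log2 difference of KO26F from WT25F was 0.01, -0.06 and 0.10, and that of WT22M from WT25F 0.06, 0.16 and 0.01. KO26F was the lowest library for 22 of the 41 genes in the middle megabase, and 7 of 23 in the first and 5 of 21 in the last. The same held for 26.7% of all genes tested. It held for 43.1% of the 25% of tested genes with the highest GC content, to which 29 of the 41 belong.

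Genes of the same pathways outside the region are given from lists drawn up by function. Of 19 tested complement genes elsewhere, 0 passed for knockouts against carriers with edgeR, DESeq2 or limma voom, and 1 had an unadjusted p under 0.05 with each. With edgeR this was Vtn, vitronectin, with 45.8 and 54.5 CPM in the knockouts against 64.7 and 63.1 in the carriers. Of 13 tested immunoproteasome genes and class II regulators elsewhere, 0 passed with any of the 3 tools, and 1, 0 and 1 had an unadjusted p under 0.05. B2m, the light chain of class I molecules, had 24.2 and 26.5 CPM in the knockouts against 30.5 and 32.1 in the carriers, without overlap and with a log2 fold change of -0.31 (edgeR adjusted p = 0.9997). Of 38 tested relatives of the region genes, a list that also held Mdc1 itself, 0 passed with any of the 3 tools, 2, 1 and 2 had an unadjusted p under 0.05, and the median log2 fold change was 0.02.

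The authors' deposited table for KO26F against WT25F carries a mark of significance on 2 of the 85 genes, Lta at a log2 fold change of -3.18 and Hspa1l at 1.57. The authors' deposited table for WT22M against WT25F marks Sapcd1 at 1.63 and Ly6g5b at -1.69, and their table for KO23M marks 0. In the authors' deposited tables these marks fall on 1.96%, 3.62% and 2.9% of all listed genes for KO26F, WT22M and KO23M. An adjusted p under 0.05, marked or not, stands in the authors' deposited tables for more genes: 23 of the 85 for KO26F, 23 for KO23M and 26 for WT22M. The same holds for 13.7%, 22.1% and 22.4% of all genes in the authors' deposited tables. Each table sets 1 library against the same WT25F, so a mark or p-value there carries no replicate error, and the 4 marked genes all have at most 40 counts in any library.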

How the data were processed

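The authors deposited 3 tables of whole-number read counts per gene, each for 1 library beside WT25F, with CPM values, a ratio (fold change), its log2 and p-values before and after adjustment, per the file headers. The sources used here do not name the test. Bowtie2 2.2.3, TopHat2 2.0.12, HTSeq 0.6.0 and the build mm9 are named in the submitters' processing notes, but the deposited positions match GRCm38 (20222 of 22084 genes identical to GENCODE vM21). The notes also do not say how strand and multiply mapped reads were handled. The tables were joined by gene identifier with missing genes set to 0.

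Counts were tested with edgeR 4.0.16 (robust quasi-likelihood fit, TMM, filterByExpr on the arms), which left 16252 genes, in 2 arms for knockouts against carriers and in 3 groups for the comparisons with WT25F. DESeq2 1.42.0 and limma 3.58.1 were alternatives. CPM is the deposited count over the library total. Ranges are TMM-scaled with 0.5 counts added. RPKM uses the union of GENCODE vM21 exons. The GC content of a gene is that of its longest GENCODE vM21 transcript. Counting intervals are exact Poisson at 95%, and cover counting error only. Promoter windows are from RefSeq, GRCm38.p6. The scripts were tested on simulated data. R 4.3.3 and Python 3.11.15 were used.

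The genes and lists were chosen with earlier results of these data known. Genes are named by rule: the 12 largest ranges at 1 CPM or more, the 10 highest RPKM, up to 4 per role with the smallest p, and those at the count threshold. Others were chosen after their values were seen. The main tests did not treat the replicate letters F and M of the titles as pairs. The comparison within letters was a description, and a fit with the letter as a block is given with the other processing choices below.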

Additional observations from a re-analysis of the deposited data

How the results depend on the processing

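With the title letter as a replicate block, 3 of the 85 genes passed for knockouts against carriers, beside 0.757% of all genes tested: Vps52 at -0.36 (adjusted p = 0.00013), 2310061I04Rik at 0.38 (0.0238) and Rab11b at 0.23 (0.0283). The libraries share only a letter, no source says that it marks a litter or a day, and with 2 letters the pairing was not established. Across genes, the F minus M differences of the 2 arms correlated at r = 0.22, or 0.10 without X and Y, and at 0.50 over the 85, and genes are not independent replicates. Leaving out 1 library at a time gave 0 to 2 of the 85 past the threshold and medians of -0.04 to 0.08 for knockouts against carriers. The 2 genes without KO23M were Vps52 and 2310061I04Rik, and without WT25F 2310061I04Rik passed. The median was 0.07 without KO26F and 0.08 without WT22M. Over all genes tested, 42 to 110 passed when 1 library was left out, against 10 with all 4, with the lone library assumed to vary like the other arm. For knockouts against WT25F the medians were 0.01 to 0.09 with 1 knockout left out, a value with no test, and the count stayed at 0 without WT22M. For WT22M against WT25F no library could be left out. In RLE scaling, DESeq2, limma voom, both other filters, leaving out X and Y, missing genes at 4 counts and the spread of the 2-arm fit, 0 of the 85 passed in each comparison these were run for. Over all genes tested, 10, 56 and 116 passed in the comparisons of knockouts with carriers, of knockouts with WT25F and of WT22M with WT25F, against 10, 23 and 33 with DESeq2 and 6, 59 and 90 with limma voom. The spread of the 2-arm fit left 6 and 0 in the comparisons with WT25F. Without a filter, 0 genes of any kind passed in both comparisons with WT25F, so that setting says nothing about the 85. A count minimum of 20 or 100 gave 93 or 77 genes, of which 86 and 77 were tested and 0 passed. The median range was 0.25 on the log2 scale with library totals and 0.27 with TMM. No pseudocount was varied, since the files hold counts. For genes under 10 CPM, depth limits what could be seen.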
